A study of Rattus norvegicus with 61 samples.

Results

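Splenic natural killer (NK) cells were compared with splenic CD8 T cells of rats, using every library that the sample titles name as one of these types. These are 12 of the 61 samples in the series, with 6 NK and 6 CD8 T libraries, and they belong to a set of 36 sorted samples that also holds B cells, CD4 T cells, monocytes and neutrophils. All 12 came from young, untreated, male WT rats of the Sprague-Dawley strain, so both groups share sex, strain, genotype and tissue. The study's methods sorted living spleen cells by flow cytometry, gating NK cells as CD45+, CD11b-, CD3- and CD161+, and CD8 T cells as CD45+, CD11b-, CD3+ and CD8a+. The labels do not say whether the libraries of a type came from separate animals, so p-values measure only the spread between these samples, which may be technical. They also do not say whether an NK and a CD8 T library with the same replicate number came from the same rat.

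NK cells and CD8 T cells are the main killer lymphocytes of the body. Both release perforin and granzymes onto a target cell, but they find the target in different ways. A CD8 T cell reads peptides on MHC class I with a rearranged T cell receptor carried by the CD3 chains, whereas an NK cell lacks that receptor and weighs signals from germline-encoded activating and inhibitory receptors such as CD161. CD4 T cells share the receptor machinery and the thymic origin of CD8 T cells, and B cells carry immunoglobulin as their antigen receptor.

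The deposited table gives an estimated count for each of 31196 rat transcripts, named by Ensembl transcript identifiers only. None could be paired with a gene name, with 0 of 31196 matching the list of 47357 gene entries used here, so the markers that define the 2 types could not be checked by name. The labels were instead checked against the profiles of the other sorted types. Library totals ran from 9756558 to 11826984 in NK cells and from 9993834 to 13282944 in CD8 T cells, and values were divided by the total to give CPM, the counts scaled to a total of 1000000 per library. Between 13611 and 14276 transcripts reached 1 CPM in an NK library and between 13406 and 14003 in a CD8 T library. The mean number was 13984 ± 230 for the NK libraries and 13714 ± 252 for the CD8 T libraries (SD, n = 6 each), a difference of 269 that did not pass a two-sided exact permutation test (p = 0.0801, 0.240 after Benjamini-Hochberg adjustment over 3 library measures). The total and the share held by the 10 most abundant transcripts did not pass either (adjusted p = 0.679 and 0.968 in the same exact test). When replicate 5 was left out, the adjusted p-values of the 3 measures were 0.238, 0.524 and 0.825 in the exact permutation test.

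Replicate 5 of both types stood apart from its label. Each library was compared with the mean profile of every sorted type, leaving the library itself out, by Pearson's r of log2(CPM + 1) across 14172 transcripts, which are not independent replicates. NK replicates 1, 2, 3, 4 and 6 were closest to the NK mean, with r from 0.951 to 0.981. NK replicate 5 was closest to the B cell mean (r = 0.977), ahead of the NK mean (r = 0.962). CD8 T replicate 5 was also closest to the B cell mean (r = 0.981), and its own type came last among the splenic types (r = 0.962). CD8 T replicates 1, 3, 4 and 6 were closest to the CD8 T mean (r from 0.972 to 0.982). CD8 T replicate 2 was marginally closer to CD4 T cells (r = 0.969) than to its own type (r = 0.966). That own-type mean included CD8 T replicate 5, the CD8 T library least alike to replicate 2 (r = 0.923). Likeness was not computed with replicate 5 left out of the means. The replicate 5 pair was also the most alike of the 36 NK and CD8 T pairs (r = 0.976), against 0.903 to 0.952 for the 25 pairs without either library. All libraries were kept under their labels. Tests and counts below are given with and without replicate 5 of both types, and values listed by replicate show it separately.

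**Figure D1:**
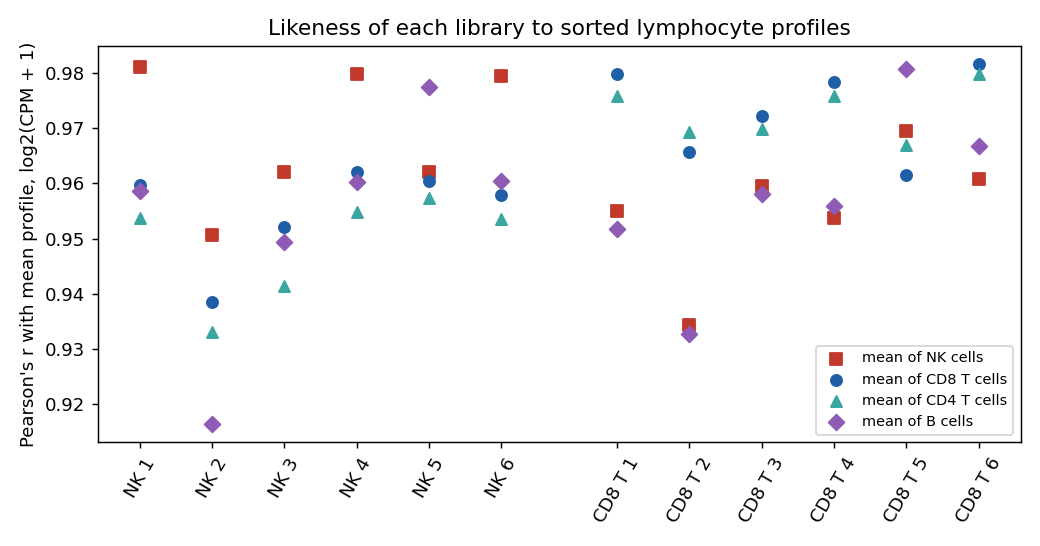
Pearson's r of log2(CPM + 1) between each of the 12 libraries (horizontal axis) and the mean profiles of the sorted lymphocyte types (vertical axis, own library left out), across 14172 transcripts. In both replicate 5 libraries the B cell mean is highest, at 0.977 in NK cells and 0.981 in CD8 T cells.

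Transcripts that mark the other sorted types were followed in the same libraries. A first rule, which asked for a mean far above that of each of the other 3 types, found 27 transcripts for CD4 T cells, 2 for neutrophils and 0 for B cells and monocytes. Both neutrophil transcripts were listed at 0 in all 12 libraries. Longer lists by medians were therefore added after the data had been seen, with 188 transcripts for B cells, 153 for CD4 T cells, 102 for monocytes and 164 for neutrophils, none chosen on NK or CD8 T values.

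Replicate 5 had the highest sum of the B cell list in both types. Its summed level in NK replicates 1 to 6 was 20098, 11927, 24088, 20009, 31963 and 20485 CPM. In CD8 T replicates 1 to 6 it was 9770, 9554, 19484, 13343, 30495 and 14108 CPM. The B cell libraries themselves held 32539 to 50676 CPM, with a median of 39117. Replicate 5 thus reached 81.7% of the B cell median in NK cells and 78.0% in CD8 T cells, against 30.5% to 61.6% and 24.4% to 49.8% in the other libraries. The NK mean was 1.33 times the CD8 T mean, which did not pass the exact permutation test (p = 0.232, adjusted over 4 lists 0.232), and the ranges overlapped. Without replicate 5 the ratio was 1.46 (p = 0.0794, adjusted 0.0794, exact permutation test). The B cell list was built without NK and CD8 T cells, so it can also hold transcripts that these types express themselves. The percentages of the B cell median therefore do not measure the share of B cells in a library.

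The CD4 T cell list was lower in NK cells. Its sum was 6163 ± 763 CPM over the 6 NK libraries and 10450 ± 2349 CPM over the 6 CD8 T libraries (mean ± SD), a ratio of 0.590 (exact permutation adjusted p = 0.0173). CD8 T replicate 5 held 6503 CPM, inside the NK range of 5347 to 7577, while the other 5 CD8 T libraries lay above every NK library at 10008 to 13488. Without replicate 5 the ratio was 0.563 (exact permutation adjusted p = 0.0159, from the smallest p that 5 against 5 allows, 0.00794). The first list of 27 gave a ratio of 0.479 (exact permutation p = 0.00433), and 0.446 without replicate 5. CD4 T and CD8 T cells share much of their expression, so a list built without CD8 T cells also holds transcripts common to both T cell types, and in bulk libraries fewer cells of a type and less RNA per cell cannot be told apart.

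The lists of the blood myeloid types were higher in NK cells. The monocyte list summed to 1375 ± 110 CPM (SD, n = 6) in NK libraries against 972 ± 238 CPM in CD8 T libraries, a ratio of 1.41 (exact permutation adjusted p = 0.0173), or 1.5 without replicate 5 (adjusted p = 0.0159). Monocytes themselves had a median of 9948 CPM for this list. The neutrophil list summed to 3272 ± 600 against 2148 ± 882 CPM, a ratio of 1.52 (exact permutation adjusted p = 0.0433), or 1.68 without replicate 5 (adjusted p = 0.0212), where neutrophils had a median of 111384 CPM. In 16 transcripts from a shorter neutrophil list the ratio of 1.46 did not pass (exact permutation p = 0.0996). The study gated monocytes and neutrophils as CD11b+, and both lymphocyte gates took CD11b- cells only. The source of these signals was not tested.

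**Figure D2:**
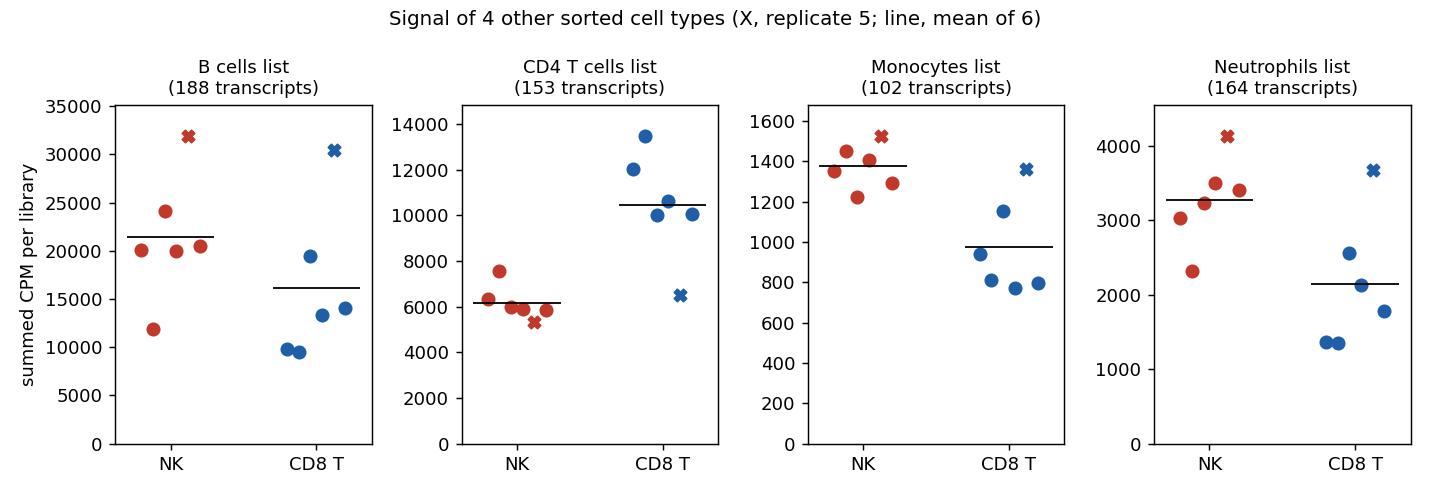
Summed CPM per library (vertical axis, linear from 0) of 4 lists of transcripts that mark other sorted cell types, in NK and CD8 T libraries, with replicate 5 as X and the mean of 6 as a line. Replicate 5 is the highest library for the B cell list in both types, at 31963 and 30495 CPM, and the lowest CD8 T library for the CD4 T cell list, at 6503 CPM.

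NK cells and CD8 T cells differed in a small part of their transcripts, and the differences were larger on the NK side. Among the 14145 transcripts that averaged 1 CPM or more, 1252 (8.85%) differed by edgeR's quasi-likelihood test with the p-value after Benjamini-Hochberg adjustment under 0.05, and 3060 (21.6%) had an unadjusted p under 0.05. Of these, 748 (5.29%) were higher in NK cells and 504 (3.56%) were higher in CD8 T cells. Without replicate 5, 1772 of 14093 (12.6%) differed, with 1012 (7.18%) higher in NK cells and 760 (5.39%) higher in CD8 T cells. The 2 analyses shared 723 of the NK-higher transcripts, which is 96.7% of the 748 and 71.4% of the 1012. They shared 493 of the CD8 T-higher transcripts, which is 97.8% of the 504 and 64.9% of the 760, and 0 transcripts were called in opposite directions. The counts also depended on the other replicates: leaving out replicate 1, 2, 4 or 6 of both types gave 557, 765, 613 or 608 differing transcripts, and leaving out replicate 3 gave 1181.

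The NK-higher transcripts lay at a median of 1.11 on the log2 scale (2.16-fold), against 0.01 over all transcripts tested. The CD8 T-higher transcripts had a median of -0.70 (1.62-fold). These medians describe transcripts chosen by the same contrast and were not tested. At least a 2-fold difference was estimated for 400 of the 748, at least 4-fold for 181 and at least 8-fold for 70. On the CD8 T side the numbers were 160, 16 and 4 of the 504, and 0 of those 4 were still called without replicate 5. Without replicate 5 the medians over the same transcripts were 1.25 and -0.81, with 437, 223 and 101 of the 748 and 197, 25 and 7 of the 504 past these folds.

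A test of whether the difference exceeded 2-fold (edgeR's glmTreat) called 99 transcripts (0.7%) higher in NK cells and 5 (0.0353%) higher in CD8 T cells. Without replicate 5 it called 254 (1.8%) and 53 (0.376%). It called 0 when replicate 1, 2, 3, 4 or 6 of both types was left out, where 358 to 486 transcripts had an unadjusted p under 0.05 by glmTreat against 463 with all 12 libraries. Every NK library lay above every CD8 T library for 403 transcripts (2.85%), and below it for 207 (1.46%). Without replicate 5 the ranges were apart for 1067 (7.57%) and 505 (3.58%).

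Differences were found at every level of abundance. They made up 6.31% of the 2362 transcripts with a mean of 1 to 3 CPM and 12% of the 768 transcripts at 100 to 300 CPM. Among the 366 transcripts at 300 CPM or more, 9.56% differed. Leaving out replicate 5, the shares of these classes were 8.51%, 17.1% and 12.8%. The median standard error of the log2 fold change was 0.40 in the lowest of these classes and 0.11 at 100 to 300 CPM, so the sparse transcripts were measured less precisely.

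Few transcripts were present in one type and at or under a floor of 3 estimated counts in every library of the other. Only 46 transcripts had a mean of 1 CPM or more in NK cells with no CD8 T library above 3 estimated counts, and edgeR called 4 of them. In the other direction there were 25, of which 2 were called. Without replicate 5 the numbers were 67 and 37. Calls were then counted among transcripts at or under that floor whose mean, with replicate 5 included, reached 1 CPM in the higher type. Among these, edgeR's quasi-likelihood test without replicate 5 called 11 and 0. In that fit 3523 of 14093 transcripts (25%) had an unadjusted p under 0.05. Most transcripts called different thus had a value above 3 estimated counts in at least 1 library of the lower type. Such a value in 1 library does not show that the type held the transcript. Transcript length appears to have been divided out, so the floor stands for different numbers of reads in different transcripts. In transcripts above 0 in few samples, the lowest value above 0 had a 5th percentile of 0.227 and a 95th percentile of 55.4. The counts at the floor therefore depend on that scaling.

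The NK-higher transcripts took up a share of each library that varied among NK replicates. They held 5.87%, 7.46%, 4.42%, 5.25%, 2.98% and 5.57% of the total in NK replicates 1 to 6. In CD8 T replicates 1 to 6 they held 2.01%, 1.89%, 2.37%, 1.93%, 2.59% and 1.87%. Replicate 5 had the lowest share of the NK libraries and the highest share of the CD8 T libraries. For the CD8 T-higher transcripts the NK libraries held 2.01% to 2.23%, and CD8 T replicates 1 to 6 held 3.54%, 3.88%, 3.25%, 3.32%, 2.43% and 3.09%. Replicate 5 was again the CD8 T library nearest to the NK range.

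The transcripts named next had the largest fold changes among those called with and without replicate 5, with at least 10 CPM in the higher type and ranges apart without replicate 5. Their estimated size follows from that choice and is given as a description. ENSRNOT00000043719 was measured at 1176, 1115, 73.9, 842, 110 and 1154 CPM in NK replicates 1 to 6, and at 5.62, 9.29, 2.97, 38.2, 59.5 and 49.4 CPM in CD8 T replicates 1 to 6. The ranges did not overlap, but NK replicates 3 and 5 lay far below the other 4. Its log2 fold change was 4.61 (SE 0.93, 24.4-fold, edgeR adjusted p = 0.00795), and 5.17 without replicate 5 (SE 0.97, adjusted p = 0.00523). Its median was 73.4 CPM in B cells, 46.3 CPM in CD4 T cells, 27.2 CPM in neutrophils and 16.5 CPM in monocytes, so the CD8 T median of 23.7 CPM was not set apart from those of the other types.

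ENSRNOT00000025923 was the second. It was measured at 47.1, 40.9, 22.7, 40.0, 8.60 and 44.0 CPM in NK replicates 1 to 6 and between 0.464 and 4.03 CPM in CD8 T cells, where the median was 2.06 CPM. All NK libraries lay above all CD8 T libraries, with replicate 5 the lowest NK library. The log2 fold change was 4.01 (SE 0.50, 16.2-fold, edgeR adjusted p = 0.00143), and 4.25 without replicate 5 (SE 0.45, adjusted p = 0.000162). In every other sorted type its median was under 3 CPM, from 1.55 CPM in monocytes to 2.49 CPM in neutrophils.

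On the CD8 T side, ENSRNOT00000073133 was measured at 15.5, 16.7, 11.1, 6.70, 12 and 9.14 CPM in CD8 T replicates 1 to 6, and at 2.29, 0, 1.75, 0.94, 2.68 and 1.92 CPM in NK replicates 1 to 6. The ranges did not overlap, and replicate 5 did not stand out. The log2 fold change was -2.88 (SE 0.51, 7.37-fold, edgeR adjusted p = 0.00378), and -3.13 without replicate 5 (SE 0.57, adjusted p = 0.00446). CD4 T cells, with a median of 6.00 CPM, came next after the CD8 T median of 11.5 CPM, and their range of 1.87 to 13.5 CPM overlapped that of CD8 T cells.

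ENSRNOT00000003248 was measured at 14.8, 8.98, 14.2, 17.9, 5.66 and 10.3 CPM in CD8 T replicates 1 to 6, and at 1.55, 0.304, 3.81, 2.51, 3.78 and 2.37 CPM in NK replicates 1 to 6. The ranges did not overlap, and replicate 5 was the lowest CD8 T library. The log2 fold change was -2.32 (SE 0.47, 4.99-fold, edgeR adjusted p = 0.00765), and -2.68 without replicate 5 (SE 0.48, adjusted p = 0.00402). The call was lost without replicate 1 (-2.13, edgeR adjusted p = 0.0555) or replicate 4 (-2.16, adjusted p = 0.0511). Unlike the transcript before it, it was low in CD4 T cells, with a median of 1.80 CPM and a highest value of 2.85 CPM.

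**Figure D3:**
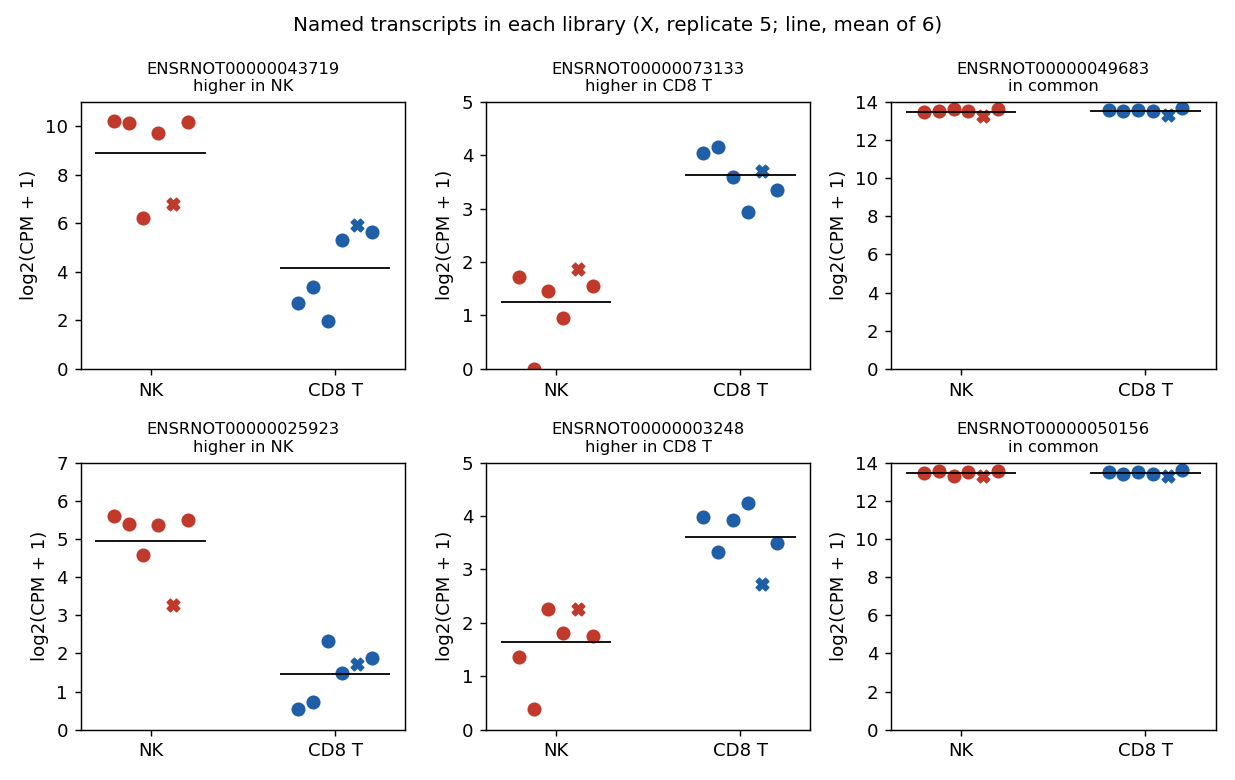
Log2(CPM + 1) of the 6 named transcripts in each NK and CD8 T library (vertical axes from 0), with replicate 5 as X and the mean of 6 as a line. The 4 differing transcripts have ranges apart in all 12 libraries, and NK replicates 3 and 5 of ENSRNOT00000043719 lie at 73.9 and 110 CPM below the other NK libraries.

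The place of the differing transcripts among the 6 sorted types was then described from their mean CPM, with TMM scaling. Of the 748 NK-higher transcripts, 401 (53.6%) had their highest mean in NK cells, 205 (27.4%) in neutrophils, 125 (16.7%) in monocytes, 16 in B cells and 1 in CD4 T cells. Over all 14145 transcripts tested the shares were 12.8% for NK cells, 25.3% for neutrophils and 17% for monocytes. The 748 were chosen as higher in NK than in CD8 T cells of these libraries, which favours a highest mean in NK cells. How much of the contrasts with all transcripts tested follows from that choice was not tested. Monocytes reached or exceeded the NK level for 270 of the 748 (36.1%) and neutrophils for 276 (36.9%), shares near the 37.5% and 38.1% by which these types reached or exceeded the higher of NK and CD8 T cells over all transcripts tested. CD4 T cells did so for 3 of the 748 (0.401%), against 32.7% of all tested. With means that leave out replicate 5, 409 (54.7%) of the 748 were highest in NK cells, against 13.6% of all tested, and the shares for monocytes, neutrophils and CD4 T cells were 34.6%, 36% and 0.401%, against 36.7%, 37.6% and 31%.

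The CD8 T-higher transcripts were highest in either CD8 T or CD4 T cells in most cases, and how they split between these depended on replicate 5. Of the 504, 226 (44.8%) had their highest mean in CD8 T cells and 202 (40.1%) in CD4 T cells, against 16.5% and 15.1% over all transcripts tested. The 504 were chosen as higher in CD8 T than in NK cells, and the part of that choice in these contrasts was not tested. CD4 T cells reached or exceeded the CD8 T level for 245 (48.6%), against 32.7% of all tested, and the median level was 21.6 CPM in both T cell types and 14.8 CPM in NK cells. With means that leave out replicate 5, 278 (55.2%) were highest in CD8 T cells and 153 (30.4%) in CD4 T cells, against 19.1% and 12.4% of all tested. CD4 T cells then reached or exceeded the CD8 T level for 190 (37.7%), against 31% of all tested, and the CD8 T median was 22.4 CPM.

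CD4 T cells lay closer to CD8 T than to NK cells for 730 of the 748 NK-higher transcripts (97.6%) and 450 of the 504 CD8 T-higher ones (89.3%), against 69.9% of all tested. B cells lay closer to CD8 T cells for 82.5% of the NK-higher transcripts and for 24.6% of the CD8 T-higher ones, against 44.2% of all tested. With means that leave out replicate 5 the CD4 T shares were 97.2% and 86.7%, against 65.4% of all tested, and the B cell shares were 81.3% and 23%, against 42.9%. B cells thus sat mostly with the lower type in both sets. These transcripts were selected on NK and CD8 T values, and the part of that selection in the shares was not tested.

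**Figure D4:**
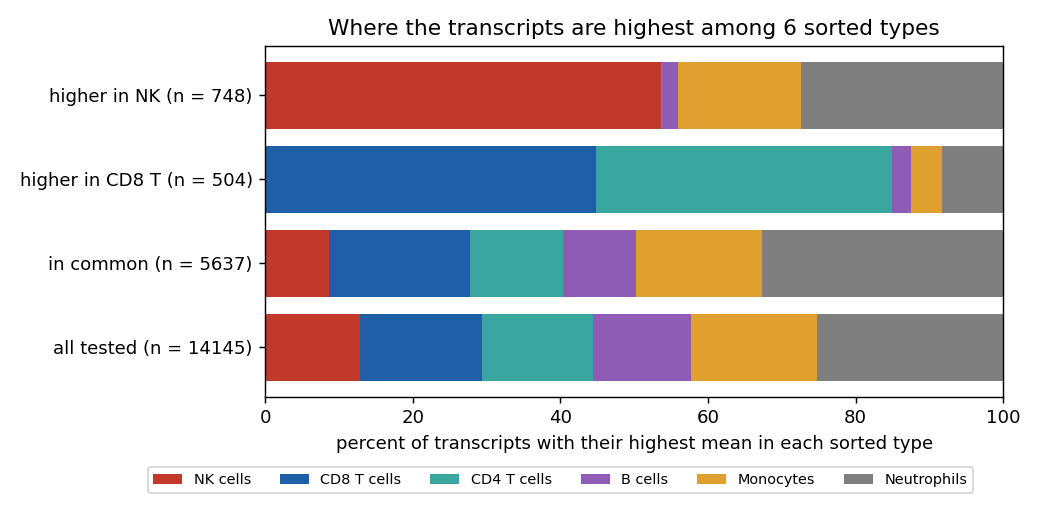
Percent of transcripts (horizontal axis, 0 to 100) with their highest mean CPM in each of the 6 sorted types, for the NK-higher, CD8 T-higher and in-common sets and for all transcripts tested. NK cells take 53.6% of the NK-higher set and the 2 T cell types take 44.8% and 40.1% of the CD8 T-higher set. All sets except that of all transcripts tested were chosen on NK and CD8 T values.

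The called transcripts were also counted within the lists that mark other types. Of the 153 CD4 T cell transcripts, 81 (52.9%) were higher in CD8 T cells and 0 in NK cells by edgeR's quasi-likelihood test, or 100 (65.4%) and 3 without replicate 5. The median difference of that list was -0.90 on the log2 scale. Of the 85 monocyte transcripts tested, 12 were higher in NK cells and 1 in CD8 T cells, or 13 and 1 without replicate 5. Among 114 neutrophil transcripts 14 (12.3%) were higher in NK cells and 0 in CD8 T cells, or 25 (21.9%) and 2 without replicate 5. Among the 188 B cell transcripts 5 (2.66%) were higher in NK cells and 0 in CD8 T cells, or 6 (3.19%) and 0 without replicate 5. Of all transcripts tested, 5.29% were higher in NK cells and 3.56% in CD8 T cells, or 7.18% and 5.39% without replicate 5.

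In the unsorted tissue samples, the sets called both ways were weighed by their share of the library. The 723 NK-higher transcripts held 2.94% to 7.40% of NK libraries (4.38% to 7.40% without replicate 5) and 2.40% to 2.80% of the 5 spleen samples. In the 5 samples of whole blood cells they held 2.61% to 4.06%, and in sorted monocytes and neutrophils medians of 5.02% and 5.41%. The 493 CD8 T-higher transcripts held a median of 3.27% in CD8 T cells, 3.24% in CD4 T cells, 2.38% in spleen and 2.20% in whole blood cells. The spleen samples lay between the NK and the CD8 T medians for both sets.

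Most well-measured transcripts were held in common. A transcript was counted so when the whole 95% interval of its log2 fold change, from limma on log2(CPM + 1), lay within a 1.5-fold difference and both types had a mean of at least 10 CPM. This was the case for 5637 of 7731 transcripts at that level (72.9%), and for 6933 (89.7%) when the bound was set at 2-fold. Without replicate 5 it was 5221 of 7665 (68.1%), or 6859 (89.5%) at 2-fold, with 5134 in both counts, which is 91.1% of the 5637 and 98.3% of the 5221. The 5637 transcripts held 52.2% to 58.3% of the NK libraries and 53.3% to 57.9% of the CD8 T libraries. The 5221 held less, at 41.4% to 45.9% and 39.4% to 43.0% without replicate 5. Of the 5637, 171 were also called by edgeR and 72 had ranges apart, against 1252 (8.85%) and 610 of all 14145 tested. Without replicate 5 these were 237 and 254 of the 5221, against 1772 (12.6%) and 1572 of 14093. The interval rule leaves out large differences, so low counts among these transcripts follow in part from the rule. All transcripts tested also include those under 10 CPM, which could not be counted in common.

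The most abundant transcripts in common were ENSRNOT00000049683 and ENSRNOT00000050156. The first was measured at 9741 to 12508 CPM in NK cells (mean 11568 ± 995, SD, n = 6) and at 10024 to 13303 CPM in CD8 T cells (mean 11904 ± 1088, n = 6). The 95% interval of its log2 fold change ran from -0.38 to 0.19, and from -0.45 to 0.18 without replicate 5. ENSRNOT00000050156 had means of 11191 ± 930 and 11236 ± 886 CPM, with an interval from -0.32 to 0.19, and from -0.40 to 0.19 without replicate 5. The ranges of the 2 types overlapped for both transcripts, and replicate 5 was the lowest library of both types for both transcripts. Neutrophils held less of them, with medians of 6163 and 5315 CPM.

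Transcripts in common were seldom particular to the pair. Of the 5637, 5417 had means within 1.5-fold over the 4 splenic types, and 2138 over all 6 sorted types. With means that leave out replicate 5 they were 5352 and 2094. Over all 14145 transcripts tested these counts were 9353 and 2781, or 8925 and 2689 without replicate 5. The interval rule already keeps NK and CD8 T cells close. Transcripts in common also had a mean of at least 10 CPM in both types, whereas the 14145 include sparser ones. The part of either condition in these counts was not tested. Only 22 of the 14145 transcripts tested had NK and CD8 T means both at least 2-fold above each of the other 4 types, with 18 of them under 10 CPM, and 1 of the 22 passed the interval rule. With means that leave out replicate 5 the 22 became 30. The transcript that passed, ENSRNOT00000037404, was singled out after its values were seen. It was measured at 158 to 473 CPM in NK cells (median 320.2) and 168 to 416 CPM in CD8 T cells (median 331), and its highest value in any library of the other sorted types was 157 CPM, in B cells. Its 95% interval for NK over CD8 T ran from -0.57 to 0.46 on the log2 scale, and from -0.30 to 0.15 without replicate 5.

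The pair was set beside the other pairs of sorted types in 1 fit over the 36 sorted samples. These comparisons share samples and were not tested against each other. NK and CD8 T cells differed in 1873 of 14172 transcripts (13.2%) by edgeR's quasi-likelihood test, and in 2226 (15.7%) without replicate 5. CD8 T and CD4 T cells differed in 165 (1.16%), or 204 (1.44%) without replicate 5. NK cells differed from CD4 T cells in 2431 (17.2%) and from B cells in 1830 (12.9%), and CD8 T cells differed from B cells in 2081 (14.7%). Without replicate 5 the comparisons with B cells gave 2365 (16.7%) and 3104 (21.9%), and NK against CD4 T cells gave 2444 (17.2%). Against monocytes NK cells differed in 8866 (62.6%) and CD8 T cells in 9387 (66.2%), and against neutrophils the counts were 9745 (68.8%) and 10248 (72.3%). With replicate 5 left out, the shares were 61.2% and 65.6% against monocytes and 68.8% and 72.3% against neutrophils.

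Sharing by the interval rule was also set side by side. CD8 T and CD4 T cells held 84.2% of their well-measured transcripts in common, above the 72.9% of NK and CD8 T cells. The other lymphocyte pairs held 75.9% for CD8 T and B cells, 73.6% for NK and B cells and 71% for NK and CD4 T cells. With all libraries kept, NK and CD4 T cells thus had the lowest share of the 5 lymphocyte pairs compared. For NK and CD8 T cells the share without replicate 5 was 68.1%. It was then 84.5% for CD8 T and CD4 T cells and 74% for CD8 T and B cells. For NK and B cells it was 70.8%, and for NK and CD4 T cells 69.7%. These shares cannot rank the pairs, because replicate 5 was left out of NK and CD8 T cells only. The NK and CD8 T pair lost a library from both types, whereas each other pair kept all its B or CD4 T cell libraries. Fewer libraries widen the interval, which can lower the share. With the blood types the share was 46.3% and 46.6% for monocytes and 33.1% and 32.5% for neutrophils, for NK and CD8 T cells in turn, or 45.7%, 45.2%, 31.9% and 31.1% without replicate 5. Tissue of origin and cell type cannot be told apart in the comparisons with monocytes and neutrophils, which came from blood.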

How the data were processed

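The authors quantified the reads with Salmon 1.6.0 against Ensembl cDNA of Rnor_6.0 and imported them with tximport in R 4.1.3. The methods name TPM, but the deposited values sum to a different total in each library and were used as estimated counts. In 4187 transcripts above 0 in few samples the lowest value varied between transcripts, with a median of 1.14 and a 95th percentile of 55.4, and 0.191% of values were whole within 0.001, so transcript length appears to have been divided out. The library totals therefore stand for depth only roughly. All 61 columns were assigned by name and 0 pairs of libraries were identical.

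Counts were rounded and tested with edgeR 4.0.16 in R 4.3.3 (quasi-likelihood, TMM, mean of at least 1 CPM, Benjamini-Hochberg adjusted p under 0.05). The standard errors (SE) were derived from that test, as the absolute log2 fold change divided by the square root of its F statistic. Transcripts in common were found with limma 3.58.1 on log2(CPM + 1), where differences of low transcripts are understated. DESeq2 1.42.0 was an alternative. For single library values, all splits were enumerated in a two-sided exact permutation test, with 924 splits of 6 against 6 or 252 of 5 against 5. Named transcripts were the 2 with the largest fold change in each direction and the 2 most abundant in common, under the conditions given with them. The lists of other cell types by medians asked for 10 CPM and a level 2 times (B cells, CD4 T cells) or 4 times (monocytes, neutrophils) that of each of the other 3. Marker and pathway lists by gene name could not be followed. The procedures were tested on simulated data, with changes placed away from the lowest levels. There 77% of 2-fold and 98% of 4-fold changes were recovered. Of the simulated calls 5.91% were transcripts that had not been changed, and 0% of the changed transcripts passed the interval rule. The members and lists were chosen with earlier results of these data known.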

Additional observations from a re-analysis of the deposited data

Results flagged for a closer look

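In NK replicate 2 the first list of 27 CD4 T cell transcripts summed to 445 CPM, against 276 to 321 CPM in the other 5 NK libraries, a gap large enough to set the library apart by Dixon's test. Among 40 groups of libraries checked this was the only one, and chance alone sets apart about 1 in 20. All CD8 T libraries except replicate 5 lay higher, at 600 CPM or more, and CD8 T replicate 5 lay at 406 CPM, below NK replicate 2. Replicate 5 of either type was not set apart in any group checked, which included the B cell list and the likeness to the B cell mean.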

How the results depend on the processing

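The side with more calls did not change under any alternative run, while the counts moved. Without replicate 1, 2, 4, 6 or 5 of both types 557, 765, 613, 608 or 1772 transcripts differed, with 376, 465, 404, 394 or 1012 higher in NK cells and 181, 300, 209, 214 or 760 higher in CD8 T cells. Leaving out replicates gave 0 to 307 past 2-fold (208 without NK replicate 5 and 202 without CD8 T replicate 5) and up to 1572 with ranges apart (1060 without NK replicate 5, 1154 without CD8 T replicate 5, 1073 without replicate 3). DESeq2 gave 807 higher in CD8 T cells of 1753, and without replicate 5 2258 in all, 1234 and 1024 by direction. The fit over 36 samples gave 803 higher in CD8 T cells. Without TMM, 66.7% of calls were higher in NK cells against 59.7%, and without replicate 5 68.4% against 57.1%, with 282 past 2-fold. A minimum of 10 CPM left 62 past 2-fold, and one of 50 CPM left 1621 in common, where fewer transcripts enter. The share of the 10 most abundant transcripts turned from 0.0196 to -0.120 percentage points without replicate 5, and the shorter neutrophil list gave 1.46 (p = 0.0996, exact permutation test). Deviations of same-numbered libraries correlated above 0.1 in 5 of 6 pairs, and 5 of 6 libraries of each type correlated best with their own number, a hint from the data and not from the design. With the replicate number as a block 2068 differed (1261 and 807) and 0 passed 2-fold by glmTreat (472 at an unadjusted p under 0.05). With the block and without replicate 5, 2529 differed (1412 and 1117) and 194 passed 2-fold. Apart from the changes in construction named above, the cause was not tested. Over its alternatives the log2 fold change of ENSRNOT00000043719 ran from 4.21 to 5.50, and that of ENSRNOT00000003248 from -2.83 to -2.00. The number of samples, the 2 libraries unlike their type and the missing gene names limit these results.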
